A study of Mus musculus with 8 samples.

Results

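The genes described here are 38 genes of the unfolded protein response and of protein folding in the endoplasmic reticulum (ER), taken as a list of names by a rule that uses no measured value. All 38 were listed among the 52325 gene identifiers of each library, and all 38 passed the filter on low values that left 17177 genes for testing. They fall into 4 groups by role: 16 chaperones and folding enzymes, 7 sensors and transcription factors, 7 genes of the ATF4 branch and 8 genes of ER-associated degradation. The question put to the data was how these genes differ between rib chondrocytes that carry *Mir140*, the gene of a microRNA abundant in cartilage, and rib chondrocytes that lack it.

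Proteins that are secreted or placed in membranes fold in the ER, where chaperones hold them and enzymes form their disulfide bonds. When unfolded protein builds up, 3 sensors in the ER membrane respond. IRE1 (encoded by *Ern1*) splices the mRNA of *Xbp1*, PERK (*Eif2ak3*) slows translation and raises ATF4 protein, and ATF6 is cut by proteases of the Golgi so that a part of it enters the nucleus. Chondrocytes secrete collagen and proteoglycan in large amounts, and disturbed ER folding is known from several inherited chondrodysplasias. Splicing, cleavage, phosphorylation and protein amounts are not seen in a gene-level RNA measurement.

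RNA was measured in primary costal chondrocytes from mice 7 d old, in 4 wild-type libraries and 4 *Mir140*-null libraries. The founders were mixed C57BL/6 and CBA/ca and were backcrossed onto C57BL/6J for a number of generations that is not stated. The null allele, made with CRISPR/Cas9 in zygotes, removes every microRNA of the *Mir140* locus from all cells of the animal, and the wild-type and null lines were both bred from heterozygous animals, so genotype and line cannot be told apart. Cells were released with collagenase, and poly(A) RNA was sequenced from all 8 samples. The values are TPM, a share of each library's transcripts corrected for transcript length, and they sum to 1000000 in every library. The labels number the replicates but do not say whether each is a separate animal or culture, so the p-values measure the spread between these libraries.

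Cartilage markers were the most abundant of the marker lists in every library, at a summed 70075 to 86524 TPM in wild-type against 53070 to 73777 TPM in *Mir140*-null for 13 genes, of which 4 (*Col9a1*, *Col9a3*, *Col11a1* and *Hapln1*) decreased and 1 (*Acan*) increased. The B and plasma cell markers summed to at most 2.82 TPM. The sums of endothelial, macrophage and neutrophil, and hypertrophic and bone markers were at most 27.1, 40.4 and 185 TPM. Skeletal muscle markers summed to 64.1 to 98.9 TPM in wild-type against 34.6 to 58.3 TPM in *Mir140*-null, without overlap, and erythroid markers summed to 256 to 1854 TPM. *Mir140*-null replicates 1 and 2 stood apart in the fibroblast list, with summed levels of 884 and 1060 TPM against 3541 to 6423 TPM in the other 6 libraries, and with *Col1a1* at 47.8 and 50.1 TPM against 793 to 1544 TPM. Of the 8 genes of that list, *Dcn* decreased and *Pdgfra* increased, with 11.8 to 19.8 TPM of *Pdgfra* in wild-type and 31.5 to 36.5 TPM in *Mir140*-null, where replicates 1 and 2 were not low. Immediate-early genes, which cells switch on within minutes of a disturbance, summed to 4541 to 8819 TPM in wild-type against 2451 to 3156 TPM in *Mir140*-null, and 5 of the 7 decreased. Mitochondrial genes took 4.06% to 6.99% of TPM in wild-type and 8.41% to 10.1% in *Mir140*-null. *Mir140* itself, listed as its hairpin gene, was at 0 TPM in 7 of the 8 libraries, every wild-type one included, and only the library with the label *Mir140*-null replicate 2 had a value (8.86 TPM), so these levels do not check the labels. The study's methods state that animals were genotyped from ear tissue. Its supplement also reports qRT-PCR of both mature microRNAs of the locus in rib chondrocyte RNA, with a significant difference between wild-type and null mice. It adds that RNA of several of those samples was used for the sequencing, so the study checked the genotypes in the chondrocytes by another measure. In such bulk samples, fewer cells of a type and less RNA per cell cannot be told apart. The part of these differences in the results that follow was not tested, and many results are also given without *Mir140*-null replicates 1 and 2. Such a fit holds fewer libraries, so a lost call alone does not show that a result rests on that pair. Among the members, *Ddit3* overlaps *Mars* on the opposite strand, and *Manf* overlaps *Rbm15b* and *Mbtps2* overlaps *Yy2* on the same strand, where the files do not show how reads were divided.

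Of the 38 members, 13 differed between the genotypes, where 16.9% of all tested genes did. In limma with Benjamini-Hochberg adjustment over all 17177 genes, *Dnajb9*, *Xbp1*, *Atf6*, *Eif2ak3*, *Asns* and *Syvn1* were higher in *Mir140*-null at an adjusted p under 0.05, which is 15.8% of the members against 10.5% of all tested genes. *Hspa5*, *Hsp90b1*, *Calr*, *Pdia4*, *Ddit3*, *Chac1* and *Herpud1* were lower, which is 18.4% of the members against 6.4% of all tested genes. The other 25 members did not pass. The shares over all tested genes include many low genes, and they are split by level below. The genotypes did not overlap for 11 members in the higher direction and 9 in the lower, and for 20 in all, where 15.7%, 10.2% and 25.9% of all tested genes showed the same. The median log2 fold change of the members was 0.01, with 19 members above 0 and 19 below, and that of all tested genes was -0.01. The median absolute log2 fold change was 0.36 in the members and 0.32 in all tested genes. Without *Mir140*-null replicates 1 and 2 the counts were 3 higher (*Dnajb9*, *Xbp1* and *Eif2ak3*) and 3 lower (*Hspa5*, *Hsp90b1* and *Calr*), when 2.08% and 1.22% of all tested genes were called, and without replicates 3 and 4 they were 7 and 7, when 11% and 12.9% of all tested genes were. The split between directions moved with the scaling, to 4 higher and 8 lower with median-ratio scaling (1368 and 1320 of all tested genes), to 4 and 8 with quantile normalization (8.77% and 6.52% of all tested genes) and to 9 and 7 on TPM of nuclear protein-coding genes alone (15.7% and 6.52%).

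**Figure D1:**
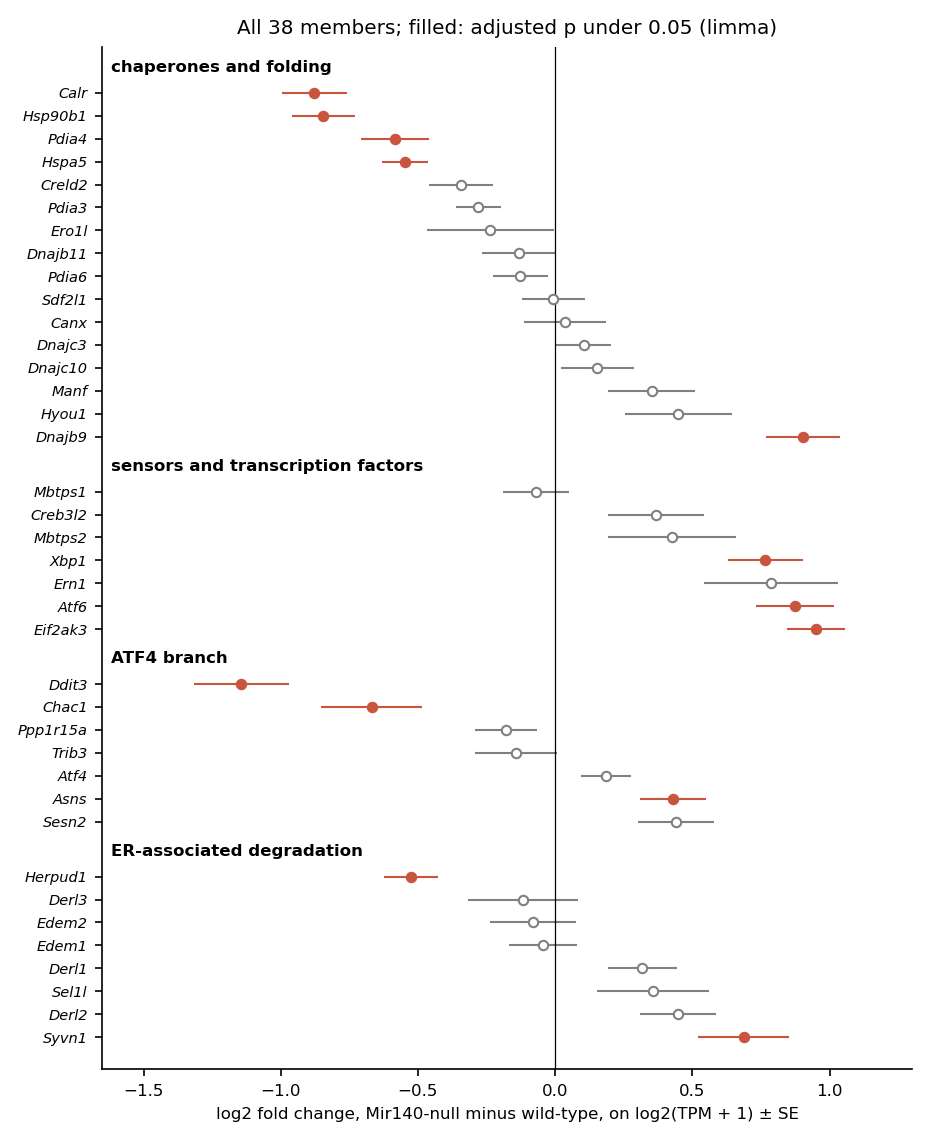
Log2 fold change of the 38 members on the log2(TPM + 1) scale, *Mir140*-null minus wild-type, with the standard error as a bar, arranged by role; filled points passed an adjusted p of 0.05. The sensors and transcription factors lie mostly to the right of 0, with 6 of 7 above it, while the 4 decreased chaperones lie between -0.88 and -0.55.

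The decreased members were among the abundant ones. Of the 15 members with a mean of at least 100 TPM over all 8 libraries, 7 decreased and 2 increased, and of the 23 members below 100 TPM, 0 decreased and 4 increased. Among all tested genes of at least 100 TPM, 9.53% decreased and 18.7% increased, and among those below it 6.19% and 9.9%. Of those below it, 10330 were under 10 TPM (7.18% decreased, 5.67% increased) and 5745 at 10 to 100 TPM (4.4% and 17.5%). Only 7 members were under 10 TPM (0 decreased, 1 increased), and 16 were at 10 to 100 TPM (0 and 3). The tested genes as a whole thus hold a larger part of low genes than the member list does. The difference by level was not tested.

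**Figure D2:**
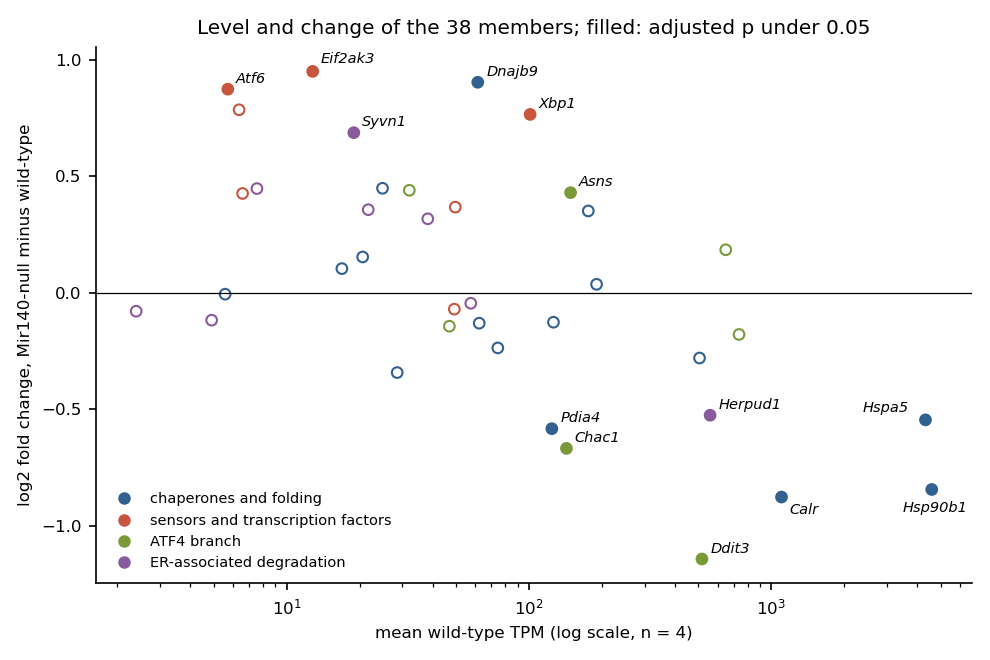
Mean wild-type TPM (log scale, n = 4) of each of the 38 members against its log2 fold change, *Mir140*-null minus wild-type, coloured by role; filled points passed an adjusted p of 0.05. The decreased members sit at wild-type means from 124 TPM (*Pdia4*) to 4587 TPM (*Hsp90b1*), and the increased members at 5.72 TPM (*Atf6*) to 148 TPM (*Asns*).

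The promoters of some of these genes carry a known control sequence, the ER stress response element, in which CCAAT is followed after 9 bases by CCACG. The left part is bound by NF-Y and the right part by ATF6, and by XBP1 as well. RefSeq promoters (250 bases before to 50 bases after the start, build GRCm38.p6) were found for 34 of the 38 members, all but *Hyou1*, *Manf*, *Atf6* and *Derl1*. The word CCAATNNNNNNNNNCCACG, searched on both strands, was found in 9 of the 34 (26.5%) and in 37 of 27025 genes with a promoter (0.137%). The element was originally described in promoters of *Hspa5*, *Hsp90b1* and *Calr*, so their matches are not independent of the word. The other members were also listed as genes of this response or of ER folding, so the share of 26.5% is not independent of the list. Each match is shown 5′ to 3′ on the strand that holds the word, with 3 flanking bases on each side and the fixed bases in capitals, for the members whose RNA changed.
Hspa5: tcaCCAATcggaggcctCCACGacg
Hsp90b1, near: tcaCCAATcgtgcctcaCCACGcac
Hsp90b1, far: agcCCAATcgcaaggagCCACGctt
Calr: gggCCAATgagggtcgaCCACGcgt
Syvn1: caaCCAATcggcggtagCCACGgga

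The *Hspa5* word lies on the gene's own strand (plus) at chr2:34772025-34772043 and begins 65 bases upstream of the start. *Hsp90b1*, on the minus strand, holds the word at chr10:86705533-86705551, read on the opposite strand, and again at chr10:86705638-86705656 on its own strand, so it was the only one of the 9 with 2 words. The *Calr* word (chr8:84847075-84847093, gene on the minus strand) reads on the opposite strand, and the *Syvn1* word (chr19:6046532-6046550, plus strand) on the gene's own. Of the 9 members with the word, 3 decreased, 1 increased and 5 (*Canx*, *Pdia6*, *Dnajc3*, *Creld2* and *Derl3*) did not pass, so genes with the same word went different ways. The shorter word TGACGTGG, known as a site for XBP1 and ATF6, was found in 0 of the 34 members and in 0.714% of genes. The word TGATGNAA, the amino acid response element bound by ATF4, was found in *Asns*, *Chac1*, *Herpud1* and *Trib3* (11.8% of the 34, and 4.51% of all genes). *Asns*, *Chac1* and *Trib3* are on the list as genes of the ATF4 branch, so their matches are not independent of this word. A match describes letters in a window and not binding.

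The most abundant chaperones decreased. *Hspa5* encodes BiP, the Hsp70 of the ER lumen that also holds the sensors inactive. Its level was 4715, 4021, 4372 and 4180 TPM in wild-type replicates 1 to 4 and 2980, 3001, 2834 and 3010 TPM in the *Mir140*-null replicates. Every wild-type library was above every *Mir140*-null library. In mean ± SD over 4 libraries it fell from 4322 ± 299 TPM to 2956 ± 82.6 TPM, which on the log2(TPM + 1) scale is a fold change of -0.55 with a standard error of 0.08 (adjusted p = 0.00862). Values with ± below are likewise means and SDs of 4 libraries.

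*Hsp90b1* encodes GRP94, the Hsp90 of the ER. It stood at 5225, 3787, 4887 and 4451 TPM in wild-type and at 2673, 2638, 2412 and 2430 TPM in *Mir140*-null, without overlap and with a log2 fold change of -0.84 (SE 0.12, adjusted p = 0.00678). *Calr*, the lectin chaperone calreticulin, which binds glycoproteins and calcium, stood at 1247, 900, 1070 and 1188 TPM in wild-type and at 602, 641, 587 and 551 TPM in *Mir140*-null, with a log2 fold change of -0.88 (SE 0.12, adjusted p = 0.00651). Its membrane-bound partner in the same cycle, *Canx* (calnexin), was at 190.0 ± 31.6 TPM in wild-type against 195 ± 28.5 TPM in *Mir140*-null (log2 fold change 0.04, SE 0.15, adjusted p = 0.891). The genotypes separated for the soluble lectin and overlapped for the membrane lectin.

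*Pdia4*, a protein disulfide isomerase, was at 102, 115, 138 and 142 TPM in wild-type and at 86.3, 85.3, 76.4 and 79.7 TPM in *Mir140*-null (log2 fold change -0.58, SE 0.12, adjusted p = 0.0205). The genotypes did not overlap, but the call was lost without wild-type replicate 3 (adjusted p = 0.0596), wild-type replicate 4 (0.0572) or *Mir140*-null replicate 2 (0.0511), and without *Mir140*-null replicates 1 and 2 together (0.0801). The call of *Pdia4* was also lost without *Mir140*-null replicates 3 and 4 together (0.0655). In the fits without 1 library its log2 fold change was -0.67 to -0.51. *Pdia3*, the isomerase that works with calreticulin and calnexin, was at 492 to 515 TPM in wild-type against 391 to 459.5 TPM in *Mir140*-null, without overlap. Its adjusted p of 0.0501 missed the threshold (log2 fold change -0.28, SE 0.08) and passed it without *Mir140*-null replicate 4 (0.0423). *Pdia6*, a further isomerase, overlapped (126 ± 13.2 against 115 ± 6.6 TPM), as did *Ero1l*, the oxidase that recharges the isomerases (74.4 ± 23.1 against 61.5 ± 11.2 TPM).

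*Dnajb9* went the other way from the chaperones above. It encodes ERdj4, a J-domain cofactor of BiP that takes substrates to degradation and returns BiP to IRE1. The wild-type libraries held 62.0, 54.3, 67.5 and 62.1 TPM and the *Mir140*-null libraries 131, 133, 94.6 and 108 TPM. All 4 *Mir140*-null values were above all wild-type values, with replicates 1 and 2 the highest. The log2 fold change was 0.90 (SE 0.14, adjusted p = 0.00837), and 0.71 without *Mir140*-null replicates 1 and 2 (adjusted p = 0.0437).

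The other J-domain members did not pass. *Dnajb11*, *Dnajc3* and *Dnajc10*, which deliver substrates to BiP or, for *Dnajc10*, reduce disulfides, had log2 fold changes of -0.13, 0.10 and 0.15. *Hyou1*, a large Hsp70 that exchanges the nucleotide of BiP, was at 24.9 ± 5.56 TPM in wild-type against 34.2 ± 6.81 TPM in *Mir140*-null with overlap (log2 fold change 0.45, adjusted p = 0.148). *Manf*, a secreted ER factor that binds BiP, was at 176 ± 30.2 and 224 ± 34.2 TPM (log2 fold change 0.35, adjusted p = 0.16). *Sdf2l1*, which pairs with *Dnajb11*, hardly differed in mean, at 5.58 and 5.55 TPM. *Creld2*, an ER-resident factor with isomerase activity, was lower in every *Mir140*-null library (19.8 to 24.2 TPM) than in every wild-type library (25.1 to 32.5 TPM) at an adjusted p of 0.0771.

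**Figure D3:**
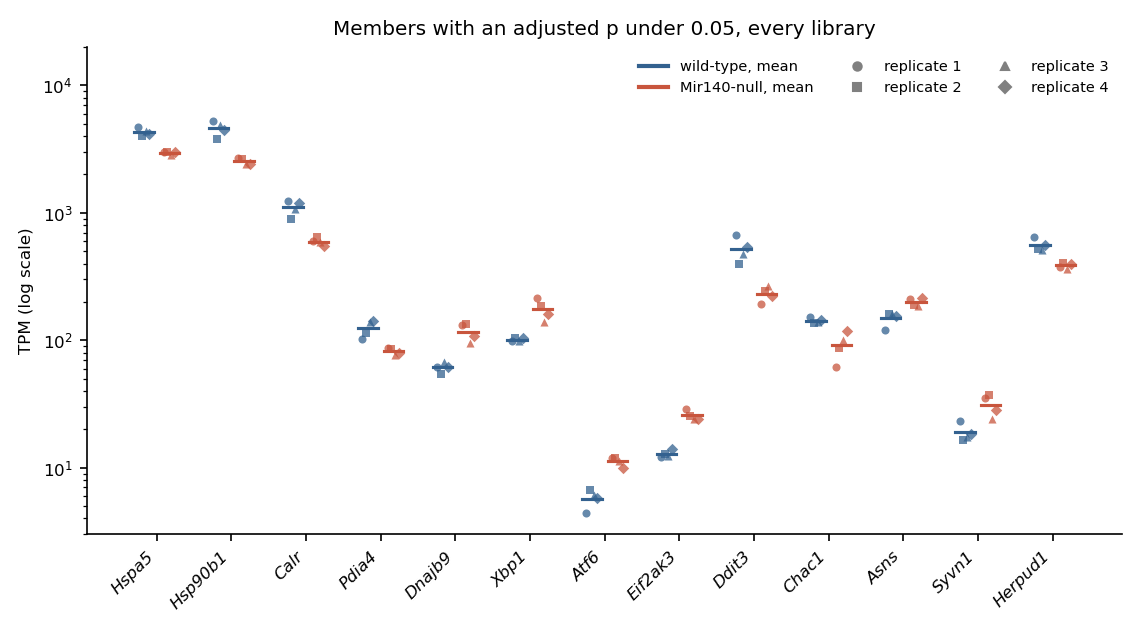
TPM (log scale) of the 13 members with an adjusted p under 0.05 in each of the 8 libraries; the shape marks the replicate number and the line the mean of 4. For all 13 the genotypes do not overlap, and *Mir140*-null replicates 1 and 2 are the highest of their group for *Dnajb9*, *Xbp1*, *Syvn1*, *Eif2ak3*, *Atf6*, *Hsp90b1*, *Calr* and *Pdia4* and the lowest for *Chac1*.

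Most of the RNA of the list came from 3 genes. The 38 members summed to 12990 to 16110 TPM in wild-type against 9949 to 10717 TPM in *Mir140*-null. *Hspa5*, *Hsp90b1* and *Calr* together made up 67.0% to 69.7% of that sum in wild-type and 58.6% to 59.0% in *Mir140*-null, with no overlap. The other 13 chaperones and folding enzymes summed to 1344 to 1471 TPM in wild-type against 1272 to 1426 TPM in *Mir140*-null, and there the genotypes overlapped. Of the client proteins of these chaperones, *Col2a1*, the main collagen of cartilage, was at 47894 to 61630 TPM in wild-type against 34418 to 48361 TPM in *Mir140*-null without passing the test (log2 fold change -0.49, adjusted p = 0.0695). Its part in the decrease of the chaperones was not tested.

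**Figure D4:**
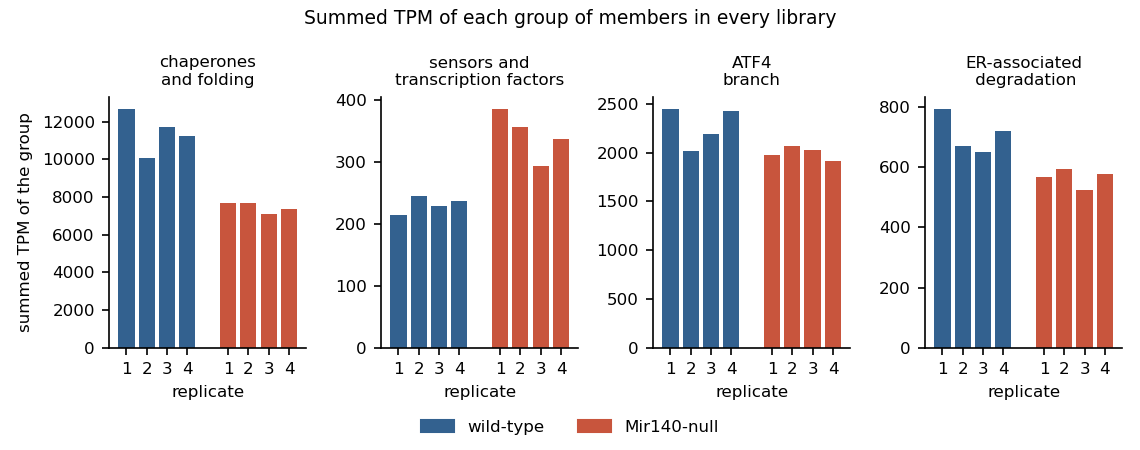
Summed TPM of each of the 4 groups of members in every library, as bars from 0, with wild-type at the left and *Mir140*-null at the right of each panel. The chaperone sum runs from 10052 to 12658 TPM in wild-type and from 7104 to 7700 TPM in *Mir140*-null, and the sensor sum from 214 to 245 TPM and from 293 to 385 TPM.

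Of the 7 sensors and transcription factors, 3 (42.9%) increased and 0 decreased, where 10.5% and 6.4% of all tested genes did. The group's median log2 fold change was 0.77. *Eif2ak3*, the kinase PERK, was at 12.2, 12.8, 12.3 and 14.05 TPM in wild-type and at 28.9, 25.5, 24.3 and 24.3 TPM in *Mir140*-null. Every *Mir140*-null library was above every wild-type library with a wide gap, the ratio of the means was 2.01, and the test gave a log2 fold change of 0.95 (SE 0.10, adjusted p = 0.00454). *Atf6* was at 4.37, 6.62, 6.09 and 5.81 TPM in wild-type and at 11.8, 11.8, 11.4 and 9.96 TPM in *Mir140*-null, with a log2 fold change of 0.87 (SE 0.14, adjusted p = 0.00993). Without *Mir140*-null replicates 1 and 2 the difference of *Atf6* was 0.80 and no longer passed (adjusted p = 0.0673), and that of *Eif2ak3* was 0.87 and did (0.0294).

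*Xbp1*, the transcription factor whose mRNA IRE1 splices, was at 98.1, 104, 98.4 and 104 TPM in wild-type and at 215, 185, 139 and 161 TPM in *Mir140*-null (log2 fold change 0.77, SE 0.14, adjusted p = 0.0125). The wild-type values were close together, and *Mir140*-null replicates 1 and 2 were the highest. *Ern1*, the gene of IRE1 itself, was at 5.92, 7.04, 6.36 and 6.17 TPM in wild-type and at 17.1, 15.5, 7.91 and 8.72 TPM in *Mir140*-null. The genotypes did not overlap, but the *Mir140*-null libraries split into a high and a low pair and the test was not passed (log2 fold change 0.79, SE 0.24, adjusted p = 0.0607). Without replicates 1 and 2 the difference of *Ern1* was 0.34 (adjusted p = 0.172), without replicates 3 and 4 it was 1.23 (0.00551), and without replicate 3 alone it was 0.95 (0.0345).

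The 3 further members of the group did not pass. *Mbtps1* and *Mbtps2* encode the site-1 and site-2 proteases that cut ATF6 in the Golgi. *Mbtps1* was at 49.2 ± 6.66 TPM in wild-type against 46.6 ± 3.21 TPM in *Mir140*-null, and *Mbtps2* at 6.58 ± 1.40 and 9.42 ± 3.29 TPM, with overlap in both. *Creb3l2*, a factor cut by the same proteases and known to raise the secretory machinery of cartilage, was at 36.1 to 65.4 TPM in wild-type against 57.0 to 68.3 TPM in *Mir140*-null (log2 fold change 0.37, adjusted p = 0.181).

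In the ATF4 branch, 2 of 7 genes (28.6%) decreased and 1 (14.3%) increased, where 6.4% and 10.5% of all tested genes did. *Atf4* itself was at 638, 596, 676 and 683 TPM in wild-type and at 763, 804, 699 and 684 TPM in *Mir140*-null. The groups met at 682.9 and 683.5 TPM, and the log2 fold change of 0.18 did not pass (adjusted p = 0.192). *Ddit3* encodes CHOP, a transcription factor of the late ER stress response linked to cell death. It was at 664, 397, 473 and 534 TPM in wild-type and at 191, 243, 266 and 224 TPM in *Mir140*-null, so the highest *Mir140*-null library was below the lowest wild-type library. Its log2 fold change of -1.14 was the largest of the 38 members in size (SE 0.17, adjusted p = 0.00839), with -1.05 and an adjusted p of 0.0577 when *Mir140*-null replicates 1 and 2 were left out. The ratio of *Ddit3* to *Atf4* within a library was 0.665 to 1.04 in wild-type and 0.250 to 0.380 in *Mir140*-null.

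*Chac1*, which breaks down glutathione and is induced by ATF4, was at 152, 136, 138 and 145 TPM in wild-type and at 61.8, 86.9, 101 and 117 TPM in *Mir140*-null (log2 fold change -0.67, SE 0.18, adjusted p = 0.0423). Its call was lost without any of the 4 wild-type replicates or *Mir140*-null replicate 2 or 3, with adjusted p from 0.0515 to 0.0968. The log2 fold change in those fits was -0.73 to -0.64. Without *Mir140*-null replicates 1 and 2 the difference was -0.39 (adjusted p = 0.094). *Asns*, the asparagine synthetase gene and a target of ATF4 in amino acid shortage, went up, from 119.6, 161, 159.5 and 154 TPM to 210.3, 189, 184 and 214.5 TPM (log2 fold change 0.43, SE 0.12, adjusted p = 0.0444). The call of *Asns* was lost without any single library, with adjusted p from 0.0546 to 0.0946, and without *Mir140*-null replicates 1 and 2 together (0.161). It was also lost without *Mir140*-null replicates 3 and 4 together (0.0892). In the fits without 1 library its log2 fold change was 0.33 to 0.47.

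*Sesn2*, a stress-induced inhibitor of mTORC1, was at 24.6 to 37.4 TPM in wild-type against 39.9 to 46.0 TPM in *Mir140*-null, without overlap (log2 fold change 0.44, adjusted p = 0.0607). *Trib3*, which binds and restrains ATF4 and CHOP, was at 47.0 ± 6.19 and 42.5 ± 6.83 TPM. *Ppp1r15a*, the phosphatase subunit GADD34 that restores translation, was at 735 ± 90.9 and 647 ± 49.0 TPM. Neither *Trib3* nor *Ppp1r15a* passed the test. The words of the amino acid response element stood in promoters of genes that rose, fell and did not pass, and they are shown with 3 flanking bases for those that changed.
Asns: acaTGATGaAActt
Chac1: gagTGATGcAAcgg
Herpud1: ggcTGATGcAAccc

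They lie at chr6:7693225-7693232 (*Asns*, gene on the minus strand, word on the same strand), chr2:119351049-119351056 (*Chac1*, plus strand, word on the opposite strand) and chr8:94386317-94386324 (*Herpud1*, plus strand, word on the opposite strand), all in GRCm38.p6. Of the 7 immediate-early genes, 5 decreased in *Mir140*-null, as *Ddit3* did. *Fos* was at 951 to 2761 TPM in wild-type against 254 to 571 TPM in *Mir140*-null, and the other decreased ones were *Fosb*, *Jun*, *Egr1* and *Ier2*, while *Ier3* was higher in every *Mir140*-null library (459 to 1548 TPM) than in every wild-type library (347 to 454 TPM). The part of the immediate-early genes in these results was not tested.

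Among the 8 genes of ER-associated degradation, which pulls misfolded protein back to the cytosol for the proteasome, 1 increased and 1 decreased. That is 12.5% each way, where 10.5% of all tested genes increased and 6.4% decreased. *Syvn1* encodes HRD1, the ubiquitin ligase of the channel. It was at 23.2, 16.6, 17.5 and 18.5 TPM in wild-type and at 35.3, 37.0, 24.2 and 28.6 TPM in *Mir140*-null, where the lowest value was just above the highest of wild-type. The log2 fold change was 0.69 (SE 0.17, adjusted p = 0.0295), and the call was lost without wild-type replicate 2, 3 or 4 or *Mir140*-null replicate 1 or 2, at adjusted p from 0.0668 to 0.0775, and without *Mir140*-null replicates 1 and 2 together (0.154). In the fits without 1 library the log2 fold change of *Syvn1* was 0.60 to 0.80. *Sel1l*, the adaptor that stabilises HRD1, was at 16.5 to 24.5 TPM in wild-type against 19.6 to 36.5 TPM in *Mir140*-null, with overlap (log2 fold change 0.36, adjusted p = 0.252).

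*Herpud1*, a membrane protein that organises the same channel, went the opposite way from *Syvn1*. It fell from 644, 521, 509 and 561 TPM in wild-type to 376, 405, 365 and 400 TPM in *Mir140*-null, without overlap (log2 fold change -0.53, SE 0.10, adjusted p = 0.0144), and it held most of the RNA of the group. Without *Mir140*-null replicates 1 and 2 its difference was -0.54 (adjusted p = 0.0694). *Derl1* and *Derl2*, derlins of the channel, were higher in every *Mir140*-null library than in every wild-type library, at 42.0 to 58.0 against 35.9 to 40.4 TPM and at 8.81 to 12.2 against 6.57 to 8.22 TPM, but did not pass (adjusted p = 0.115 and 0.0597). *Derl3* (4.91 ± 1.35 and 4.35 ± 0.588 TPM) and the mannosidase-like lectins *Edem1* (57.6 ± 8.89 and 55.3 ± 3.02 TPM) and *Edem2* (2.40 ± 0.611 and 2.18 ± 0.239 TPM) overlapped.

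Some members are on the published lists of predicted targets of the microRNAs of *Mir140*, which were made for human transcripts. *Atf6* and *Sel1l* are on the list of miR-140-5p and *Syvn1* and *Edem1* on that of miR-140-3p.1, a form of miR-140-3p that starts 1 base later, and none is on that of miR-140-3p.2, which has the seed of the annotated form. Of these 4, *Atf6* and *Syvn1* increased, where 15.8% of the members and 10.5% of all tested genes did. The annotated miR-140-3p is shown with its seed, bases 2 to 8, in capitals, and again from its second base on with the seed of miR-140-3p.1, both with the 3′ end of the RefSeq entry on the plus strand of chromosome 8 (chr8:107551288-107551308, GRCm38.p6).
miR-140-3p: uACCACAGgguagaaccacgg
miR-140-3p, read from the second base: aCCACAGGguagaaccacgg

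In the longest annotated mouse 3′UTR of *Syvn1* (1055 bases), CCTGTGG, the complement of the miR-140-3p.1 seed, occurs at positions 515 and 731 and AACCACT, that of miR-140-5p, at position 692. The matches are in capitals, with the flanking bases of the plus strand of chromosome 19.
Syvn1, position 515: ccccgaagcCCTGTGGcatttcc
Syvn1, position 731: cacctccaaCCTGTGGgatgtcg
Syvn1, position 692: tgctccttaAACCACTgctcccc

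The 3 words lie at chr19:6053172-6053178, chr19:6053388-6053394 and chr19:6053349-6053355 in GRCm38.p6. The mouse 3′UTR of *Atf6* (5205 bases) holds no AACCACT, although the gene is on the miR-140-5p list, and holds CCTGTGG 4 times. That of *Edem1* (3792 bases) holds AACCACT 1 time and no CCTGTGG, and that of *Sel1l* (3801 bases) holds neither. Only the complement of seed bases 2 to 8 was searched. Sites that match bases 2 to 7 and have an A beside them, which the study also names, were not. These matches are letters in an annotated 3′UTR and do not show binding.

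Other genes of ER and stress biology, 115 genes in 6 lists, were read from the same fit. Of the 114 that were tested, 37 (32.5%, against 10.5% of all tested genes) increased and 3 (2.63%, against 6.4%) decreased, with a median log2 fold change of 0.25. By mean level, 5.67%, 17.5%, 19.7% and 11.7% of all tested genes increased below 10, at 10 to 100, at 100 to 1000 and from 1000 TPM. Of the wider genes at those levels (16, 65, 28 and 5), 31.25%, 41.5%, 17.9% and 0% increased. Without wild-type replicate 1, 2, 3 or 4 the increases were 23, 24, 19 and 21, when 6.03%, 7.34%, 4.62% and 5.12% of all tested genes increased. They were 18 without *Mir140*-null replicate 2, when 4.54% of all tested genes increased. Without *Mir140*-null replicates 1 and 2 together they were 8, when 2.08% of all tested genes did. The untested gene was *Ern2*, the IRE1 paralog of epithelia, which was at or near 0 TPM in every library. Among other ER folding factors, 4 of 22 increased and 2 decreased. *Txndc5*, a disulfide isomerase, was at 37.0, 37.3, 39.0 and 39.3 TPM in wild-type and at 76.0, 72.0, 79.7 and 76.7 TPM in *Mir140*-null (log2 fold change 0.98, SE 0.08, adjusted p = 0.00211). Each genotype was narrow and the genotypes lay far apart, and the call held without *Mir140*-null replicates 1 and 2 (adjusted p = 0.0123). *Pdia5*, another isomerase, increased (log2 fold change 0.89), and so did *Mogs*, the glucosidase that makes the initial cut of N-glycans (0.78), whose call was lost in 6 of the 8 fits without 1 library (adjusted p up to 0.0945) and which was at 0.51 without *Mir140*-null replicates 1 and 2 (adjusted p = 0.113).

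*Tmx1*, a membrane isomerase, decreased from 30.3 to 37.8 TPM in wild-type to 16.97 to 22.7 TPM in *Mir140*-null (log2 fold change -0.82, adjusted p = 0.00843). *P4hb*, the disulfide isomerase that is also a subunit of the collagen prolyl hydroxylase, was at 1111, 1101, 993 and 1098 TPM in wild-type and at 783, 815, 833 and 904 TPM in *Mir140*-null. It decreased without overlap (log2 fold change -0.37, SE 0.08, adjusted p = 0.0245), with the call lost in 4 of the 8 fits without 1 library (adjusted p up to 0.0725). Neither passed without *Mir140*-null replicates 1 and 2, with -0.72 for *Tmx1* (adjusted p = 0.0549) and -0.31 for *P4hb* (0.109). Among the disulfide isomerases named here, *Pdia4*, *P4hb* and *Tmx1* were called lower and *Txndc5* and *Pdia5* higher.

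In the list of the translocon, signal peptidase and N-glycosylation, 9 of 23 genes (39.1%) increased and 0 decreased, where 10.5% and 6.4% of all tested genes did. *Ssr3*, a subunit of the translocon-associated complex, was at 120.1, 120.2, 127.5 and 126 TPM in wild-type and at 246, 215, 182 and 199.5 TPM in *Mir140*-null (log2 fold change 0.76, adjusted p = 0.00726). *Sec61a1*, the channel itself, had a log2 fold change of 0.56 and *Rpn1*, a subunit of the oligosaccharyltransferase, one of 0.65. Of the other degradation factors, 5 of 16 increased and 0 decreased, and the smallest p were those of the ubiquitin-conjugating enzymes *Ube2j1* (0.52) and *Ube2g2* (0.71) and of *Herpud2* (0.50), whose paralog *Herpud1* fell. The call of *Herpud2* was lost without wild-type replicate 2 (adjusted p = 0.0504) or 4 (0.0551), and without *Mir140*-null replicates 3 and 4 together (0.0606). When *Mir140*-null replicates 1 and 2 were left out, *Ssr3* still passed (adjusted p = 0.0338), and *Sec61a1* (0.052), *Rpn1* (0.0569), *Ube2j1* (0.0737), *Ube2g2* (0.0981) and *Herpud2* (0.0664) did not.

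Of the other ATF4 targets, 11 of 23 (47.8%) increased and 1 (4.35%) decreased, where 10.5% and 6.4% of all tested genes did. *Slc7a11*, the cystine importer, was at 1.51 to 3.07 TPM in wild-type against 5.60 to 5.96 TPM in *Mir140*-null (log2 fold change 1.01, adjusted p = 0.00993). *Psat1* (1.22) and *Shmt2* (1.25), of serine and glycine synthesis, increased, with *Shmt2* at 37.5 to 43.8 TPM in wild-type and at 143, 115, 74.4 and 71.3 TPM in *Mir140*-null. *Atf3*, a factor that ATF4 and also other stress signals induce, was the decreased one, at 3745, 1674, 2127 and 2310 TPM in wild-type and at 505, 889, 835 and 779 TPM in *Mir140*-null (log2 fold change -1.68, SE 0.27, adjusted p = 0.00969). The other 11 genes of the list did not pass. *Psat1* and *Shmt2* still passed without *Mir140*-null replicates 1 and 2, and *Slc7a11* (0.98, adjusted p = 0.0664) and *Atf3* (-1.54, adjusted p = 0.0568) did not. Of the 7 immediate-early genes, 5 were lower in the same libraries as *Atf3*, and the part of these genes was not tested.

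Among other stress transducers, 6 of 14 increased and 0 decreased. *Creb3l1*, a factor cut in the Golgi like ATF6 and active in matrix-secreting cells, was at 8.43, 12.7, 10.3 and 10.3 TPM in wild-type and at 27.4, 23.7, 24.4 and 27.2 TPM in *Mir140*-null (log2 fold change 1.23, SE 0.13, adjusted p = 0.00431). No *Mir140*-null library was near the wild-type range. The gene is on the miR-140-5p list with AACCACT at positions 213 and 258 of a 3′UTR of 643 bases. Of the 7 wider genes on that list 3 increased and 0 decreased, where 32.5% and 2.63% of the 114 tested wider genes did. Among all tested genes, 10.5% increased and 6.4% decreased. The word did not separate the 7: *Aars* and *Eif2ak2*, on the list and not called, hold it and *Ube2j1*, which increased, does not. Other kinds of seed match were not searched. Of the 5 on the miR-140-3p.1 list 2 increased (*Ssr3* and *Sec61a1*), and of the 4 on the miR-140-3p.2 list 2 (*Ssr3* and *Bak1*). *Creb3*, of the same family, rose by 0.78 on the log2 scale and *Bak1*, a pore former of mitochondrial apoptosis that also acts at the ER, by 0.89. *Eif2s1*, the translation factor that PERK phosphorylates, *Traf2*, an adaptor of IRE1, and *Eif2ak4*, the kinase GCN2 of amino acid shortage, increased by 0.80, 0.61 and 0.77, but these calls were lost in 3, 5 and 6 of the 8 fits without 1 library. Of 16 cytosolic and mitochondrial chaperones, 2 increased and 0 decreased. Both act in mitochondria, *Hspa9* (0.56) and the protease *Lonp1* (0.65), and their calls were lost in 4 and 5 of those 8 fits. *Creb3l1* and *Bak1* still passed without *Mir140*-null replicates 1 and 2 (adjusted p = 0.0322 and 0.0336). *Creb3* (0.0784), *Eif2s1* (0.106), *Traf2* (0.134), *Eif2ak4* (0.154), *Hspa9* (0.0886) and *Lonp1* (0.095, with a log2 fold change of 0.41) did not pass. The mitochondrial share of TPM was also higher in *Mir140*-null, and its part here was not tested.

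**Figure D5:**
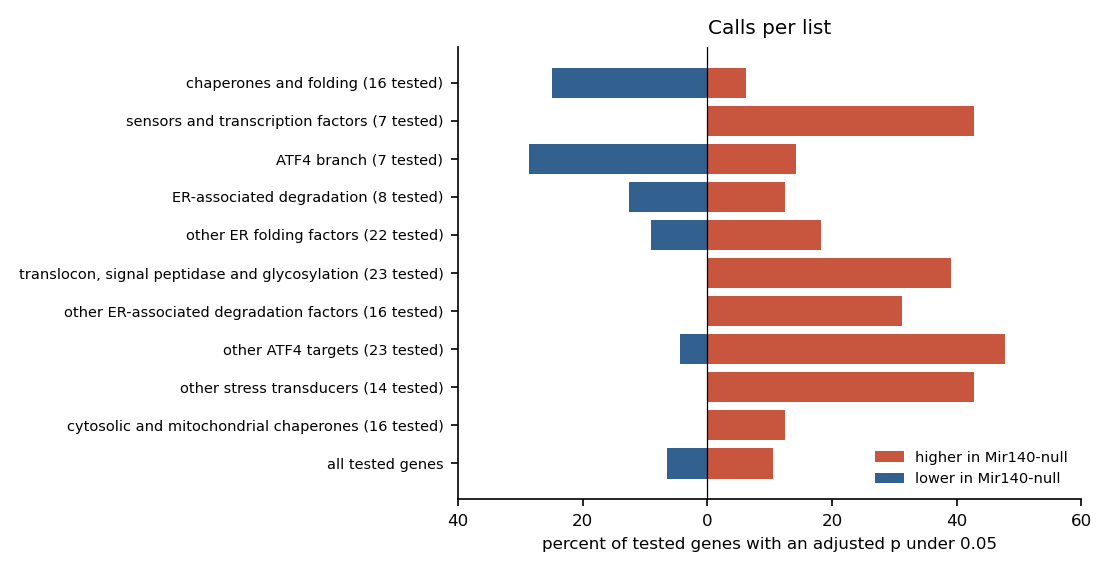
Percent of the tested genes of each list, and of all 17177 tested genes, that increased (right) or decreased (left) in *Mir140*-null at an adjusted p under 0.05. The sensors and transcription factors (42.9% increased, 0% decreased) have increases only, as have 4 of the 6 wider lists, while chaperones and folding enzymes (6.25% and 25.0%) and the ATF4 branch (14.3% and 28.6%) have more decreases than increases. Of all tested genes, 10.5% increased and 6.4% decreased.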

How the data were processed

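The authors sequenced stranded poly(A) libraries from 1 end, checked the reads with FastQC 0.11.7, quantified them against the mm10 transcriptome with Salmon (version not given in the sources used here), and deposited 1 file of TPM per Ensembl gene for each of the 8 libraries. The step from transcripts to genes is not given in the sources used here, and the deposited TPM carry no scaling between libraries. TPM are shares, so a value also moves with the rest of its library. Exact depths are unknown, so counting error has no interval here.

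Identifiers listed on several lines were counted once, after which each library summed to 1000000 TPM, and 99.8% of the identifiers were found in GENCODE M21. The authors modelled counts with DESeq2 and RUVSeq factors. As TPM are not counts, genes that reached 0.5 TPM in 4 or more of the 8 libraries were fitted in limma 3.58.1 (R 4.3.3) on log2(TPM + 1) with genotype as the only term and a mean-variance trend. P-values were two-sided and adjusted by the Benjamini-Hochberg method over the 17177 tested genes, with a threshold of 0.05. A fold change on this scale understates the change of low genes. Python 3.11.15, NumPy 2.4.6, pandas 2.3.3 and matplotlib 3.10.9 were used for the rest.

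The members and the gene lists were chosen with earlier results of these data known. All members are named, and from each wider list the called genes with the smallest p, up to 3 in each direction, and every called stress transducer. Promoters and microRNAs came from RefSeq and 3′UTRs from GENCODE M21, both on GRCm38.p6 (mm10). Alternatives were another pseudocount (0.1), no filter, a mean of at least 5 TPM, 3 scalings, a replicate block, 1 factor of unwanted variation, sample weights and each library left out. Leaving out pairs of libraries was chosen after seeing the data. Protein sequences were not analysed here.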

Additional observations from a re-analysis of the deposited data

Results flagged for a closer look

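Within each genotype, the highest or lowest of the 4 libraries was compared with the others for 61 genes, 122 groups of 4 in all, and 5 libraries lay farther from the rest than Dixon's 95% critical value allows, where chance flags about 1 in 20 groups. *Hspa5* was at 2834 TPM in *Mir140*-null replicate 3, below 2980 to 3010 TPM in its other replicates, and all 4 were below wild-type. *Pdia6* was at 145.9 TPM in wild-type replicate 1 (others 118.1 to 120.5 TPM) and at 125.1 TPM in *Mir140*-null replicate 1 (others 111.5 to 112.6 TPM). *Dnajb11* was at 45.06 TPM in *Mir140*-null replicate 2 (others 60.6 to 61.35 TPM), and *P4hb* at 993 TPM in wild-type replicate 3 (others 1098 to 1111 TPM). For *Hspa5* and *P4hb* these libraries stayed outside the range of the other genotype.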

How the results depend on the processing

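Over 20 alternatives, the 13 called members gave 260 fits, of which 213 kept their direction and call, 47 kept the direction without the call and 0 turned. Another filter, the replicate block and the factor from residuals leave each fold change as it was, so no direction could turn there. The factor from residuals also takes up spread within the genotypes by its construction. *Hsp90b1*, *Calr*, *Dnajb9*, *Xbp1*, *Atf6*, *Eif2ak3* and *Ddit3* stayed called in all 10 other settings and in the 8 fits without 1 library. Members called higher (6) were 10 with 1 factor from residuals and 3 without *Mir140*-null replicates 1 and 2, and 4 to 6 without 1 library. Members called lower (7) were 3 without that pair and 5 to 8 without 1 library. Wider genes called higher (37) were 24 with median-ratio scaling, 19 with 1 factor from control genes, 8 without that pair and 18 to 33 without 1 library, and those called lower (3) were 5 with quantile normalization, 0 without that pair and 2 to 4 without 1 library. The cause of these shifts was not tested. Of all tested genes, 1797 were higher and 1100 lower, against 977 and 539 without a filter, 1643 and 605 at a mean of at least 5 TPM, 2460 and 2016 with 1 factor from residuals, 979 and 426 with 1 factor from control genes, 357 and 210 without *Mir140*-null replicates 1 and 2, 1889 and 2212 without replicates 3 and 4, and 779 to 1553 and 419 to 1214 without 1 library.

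The replicate numbers did not pair the samples. Deviations of same-numbered libraries correlated at -0.00911 to 0.0688, and 2 of the 8 libraries were closest to their own number. With the number as a replicate block, 4 members were higher and 3 lower, 12 wider genes were higher and 1 lower, and 671 of all tested genes were higher and 454 lower.

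Of the named members, only ones that were not called changed sign, in 25 of their 498 fits. *Canx* was at -0.090 with quantile normalization, -0.14 with 1 factor from control genes, -0.13 without *Mir140*-null replicates 1 and 2 and -0.043 to 0.14 without 1 library. *Dnajc3* was at -0.0083 with quantile normalization, and *Dnajc10* at -0.0045 without *Mir140*-null replicates 3 and 4. *Sdf2l1* was at 0.022 with quantile normalization, 0.0070 on nuclear protein-coding TPM, 0.0016 with 1 factor from control genes, 0.017 with sample weights, 0.015 without *Mir140*-null replicates 1 and 2 and -0.048 to 0.031 without 1 library. *Trib3* was at 0.027 with 1 factor from control genes and 0.038 without that pair. *Edem1* was at 0.0068 and 0.011 in the same fits and at -0.13 to 0.045 without 1 library. *Edem2* was at 0.066 with quantile normalization, 0.011 without that pair and -0.17 to 0.010 without 1 library.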

Other observations

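Other called genes of the wider lists, chosen here after their values were seen, are as follows. The tRNA synthetases *Gars*, *Sars* and *Nars*, which charge glycine, serine and asparagine, increased by 0.83, 0.60 and 0.64 on the log2(TPM + 1) scale (limma, adjusted p = 0.0155, 0.0229 and 0.0238). *Nars* stood at 84.9 to 103 TPM in wild-type and at 189, 163, 128 and 129.6 TPM in *Mir140*-null. *Vldlr*, a lipoprotein receptor, had the largest log2 fold change of the 114 tested wider genes in the higher direction, at 1.53 (SE 0.27, adjusted p = 0.0125), with 2.43 to 7.29 TPM in wild-type and 14.1 to 19.8 TPM in *Mir140*-null. *Atf5*, a transcription factor of the mitochondrial stress response, increased by 0.94 (adjusted p = 0.0158).

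The signal peptidase subunits *Spcs2*, *Spcs3* and *Sec11c* increased by 0.73, 0.61 and 0.56 (adjusted p = 0.0163, 0.0226 and 0.0457), as did the translocon subunits *Sec61b* (0.43) and *Sec62* (0.34) and the receptor of the signal recognition particle, *Srpr* (0.37). *Vcp*, the ATPase that pulls proteins out of the ER, and its cofactor *Nploc4* increased by 0.59 and 0.76 (adjusted p = 0.0372 and 0.0471), and in both *Mir140*-null replicates 1 and 2 were the highest. Without *Mir140*-null replicates 1 and 2, none of the genes named here passed, with adjusted p from 0.073 (*Atf5*) to 0.202 (*Nploc4*), and *Vcp* and *Nploc4* were at 0.34 and 0.44.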
